A study of Mus musculus with 6 samples.

Results

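The genes described here encode the proteins of the mitochondrial ribosome, the machine that translates the messenger RNAs of the mitochondrial genome. They were taken as all protein-coding genes of the GENCODE M21 annotation whose symbol begins with Mrpl or Mrps and a digit, plus Dap3. The rule gave 79 genes among the 8129 genes with reads in the series, 49 with large subunit (Mrpl) symbols and 30 with small subunit symbols (Mrps and Dap3). All 79 had at least 1 read. Expression was measured by nanopore sequencing of capped, full-length cDNA from interscapular brown fat of male wild type C57BL/6N mice aged 20 weeks. There were 3 libraries from mice kept alone at 4 °C for 24 h (cold replicates 4, 11 and 15) and 3 from control mice (control replicates 2, 9 and 14). The records give no separate temperature for controls beyond the 22 to 24 °C of the animal rooms, nor whether they were housed alone, so that single housing and cold cannot be told apart. The numbers are mouse numbers, and each library stands for 1 mouse.

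Mitochondrial ribosomes differ from those of the cytosol: all of their proteins are encoded in the nucleus, made in the cytosol and imported, while their ribosomal RNAs come from mitochondrial DNA. Everything they translate is a core subunit of the respiratory chain or of ATP synthase, and in brown fat the respiratory chain supplies the proton gradient that Ucp1 turns into heat. Many of the proteins have a counterpart in bacterial ribosomes, and the others are specific to mitochondria. The gene symbols do not follow the structure throughout. Mrps30 and Mrps18a encode proteins of the large subunit, and Mrps36 encodes a small protein of the 2-oxoglutarate dehydrogenase complex of the citric acid cycle.

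Each library was read on 2 flow cells, whose reads were summed. Libraries held 1014812 to 1849351 reads in the control group and 2922939 to 2982630 in the cold group, so every cold library was deeper than every control library. A floor of 3 reads corresponded to 1.62 to 2.96 CPM (read counts scaled to library size) in control and 1.01 to 1.03 CPM in cold libraries. Intervals and floors cover no error from PCR copies, which could not be told from separate molecules. The brown adipocyte marker Ucp1 was abundant, at 4520 ± 335 CPM over the control mice and 4129 ± 45.0 CPM over the cold mice (SD, n = 3). Of 8 such markers 2 fell in the cold (25.0%, where 15.1% of all tested genes fell). These were Adipoq and Cox8b, with log2 changes of -0.88 and -0.98 (edgeR, adjusted p = 0.0022 and 0.0127). Pparg was low, at a mean of 5.45 CPM. Of 6 markers of white fat and epididymal mesothelium 5 had no read, and leptin had 1.03 CPM in control replicate 9 alone. Markers of other cell types were at 0 too (4 of 6 for macrophages and 3 of 6 for fibroblasts), so that 0 reads says little about the depot. The summed level of 8 skeletal muscle markers ran from 66.5 to 441 CPM in control and was 84.9, 1183 and 6333 CPM in cold replicates 4, 11 and 15. Its part in the results was not tested, and the counts of called genes were repeated without cold replicates 11 and 15.

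Reads were found for all of the mitochondrial ribosomal protein genes, and those called moved in both directions in the cold. Mean levels of the tested members ran from 4.46 to 867 CPM, with a median of 34.7 CPM. Of 79 genes 68 passed the filter on low counts and were tested with edgeR. A gene was called at a Benjamini-Hochberg adjusted p under 0.05 over all 2093 genes tested. In all 17 members were called, 11 higher and 6 lower in the cold. That is 25.0% of those tested, against a background of 33.2% of all genes. The share called higher was 16.2% against 18.1%, and the share called lower was 8.82% against 15.1%. At an unadjusted p under 0.05 there were 24 members, where 44.0% of all genes passed. The median log2 change of the 68 genes was -0.03, and that of all tested genes was 0.04. Calls were thus no more frequent among these genes than among genes in general. The split of 11 higher and 6 lower was 8 and 8 with DESeq2, and 6 and 10 with all libraries thinned to the smallest. In bulk tissue fewer cells of a type and less RNA per cell cannot be told apart.

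**Figure D1:**
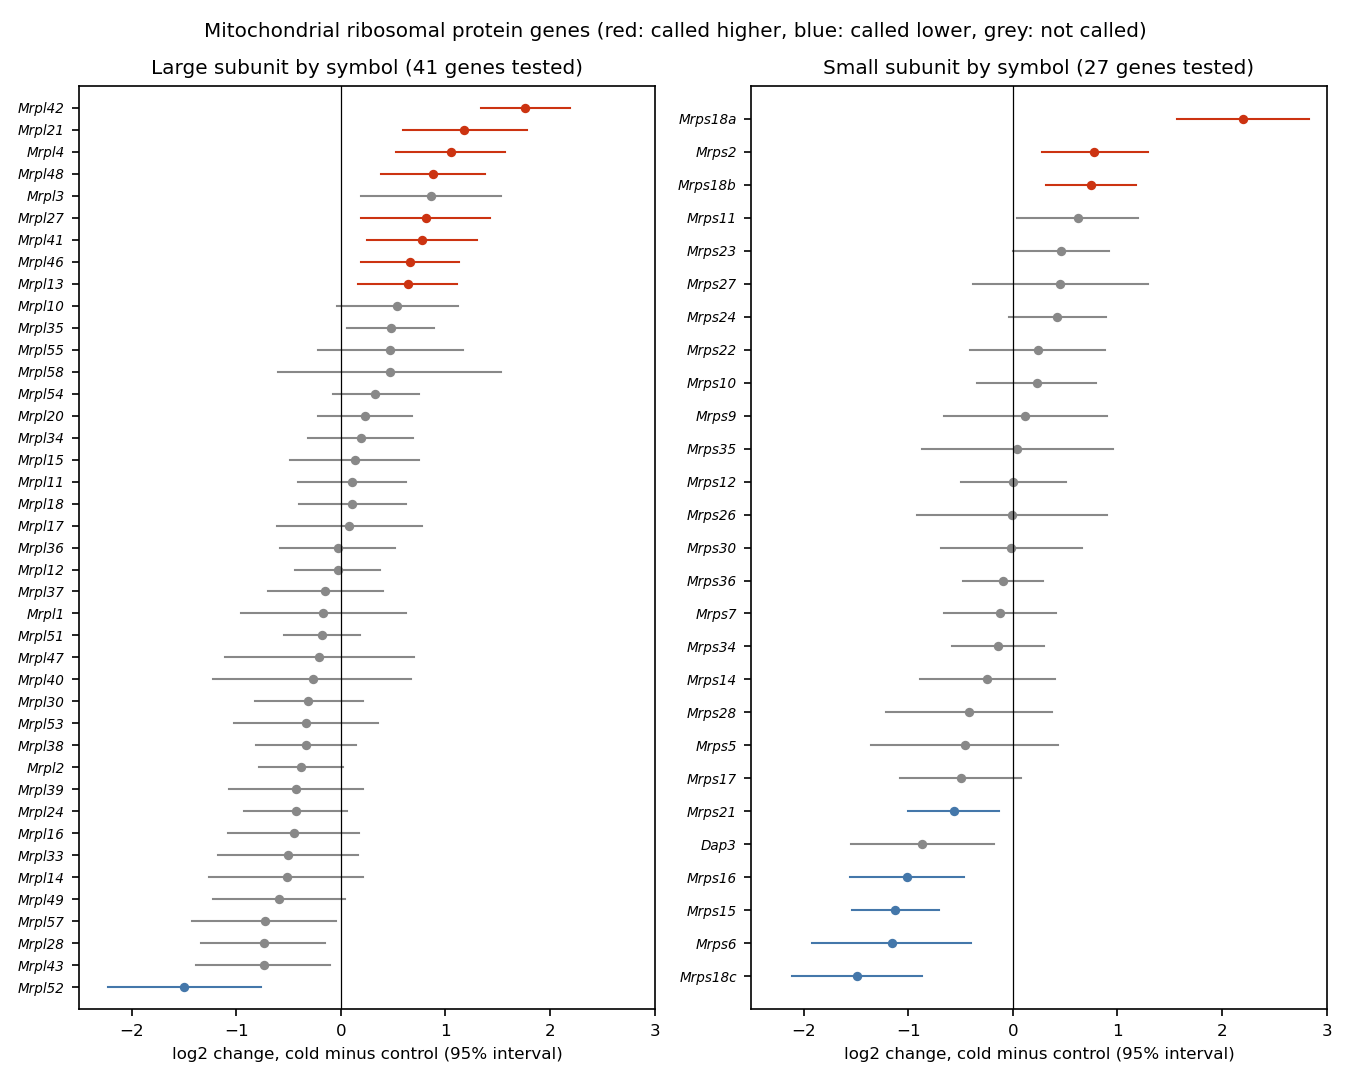
Log2 change, cold minus control, of each tested mitochondrial ribosomal protein gene with its 95% interval, for 41 large and 27 small subunit genes by symbol. Mrps18a at 2.20 and Mrpl42 at 1.76 stand at the top of their panels, Mrps18c at -1.49 and Mrpl52 at -1.50 at the bottom, and most genes lie near 0.

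In the large subunit, 8 of 41 tested genes rose (19.5%) and 1 fell (2.44%), with a median log2 change of -0.03. In the small subunit, 3 of 27 rose (11.1%) and 5 fell (18.5%), with a median of -0.02. Of all tested genes 18.1% were called higher and 15.1% lower. With Mrps30 and Mrps18a counted by structure as large and Mrps36 left out, the counts were 9 higher and 1 lower of 43 large, and 2 higher and 5 lower of 24 small subunit genes. No test compared the subunits. Leaving out single libraries changed the counts: the rises of both subunits together were 6 without control replicate 14, 4 without cold replicate 4 and 6 without cold replicate 11. The call held without any 1 library for 8 of the 17 genes, namely Mrpl42, Mrps18a, Mrps15, Mrps18c, Mrpl52, Mrpl4, Mrpl21 and Mrps16. Without cold replicates 11 and 15 together, which leaves 1 cold library, 4 members were called higher (Mrpl42, Mrps18a, Mrpl4 and Mrpl21) and 1 lower (Mrpl52). The spread in that fit comes from the controls alone, and the lone cold library is assumed to vary like them. On 1 flow cell alone, calls were lost for Mrps2, Mrps21, Mrpl13, Mrpl27, Mrpl41 and Mrpl46 (flow cell 1) and for Mrps6, Mrps18b and Mrpl21 (flow cell 2). The median of the small subunit genes changed sign without cold replicate 15 (0.04), and that of the large subunit genes was 0.24 without control replicate 2.

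Mrpl42, which encodes a mitochondria-specific protein of the large subunit, had the smallest p of the set. Its normalised read counts were 101, 94.5 and 118 CPM in control replicates 2, 9 and 14, and 336, 361 and 367 CPM in cold replicates 4, 11 and 15. Every cold library stood above every control. Of all tested genes 26.0% had every cold library above every control, by any amount. The change was 1.76 ± 0.19 (log2 ± SE, here and below), or 3.39-fold (adjusted p = 0.0001). The gene (ENSMUSG00000062981) lies on chromosome 10 of GRCm38 from 95480805 to 95501940. Its reads fell on 3 tested transcripts of nearly equal length, 666, 661 and 677 bases, and all 3 rose. Mrpl42-201 rose by 1.89 ± 0.20, Mrpl42-203 by 1.66 ± 0.21, and Mrpl42-205, annotated as a target of nonsense-mediated decay, by 1.85 ± 0.34 (adjusted p = 4.2e-05, 0.000165 and 0.00143). Their shares of the gene's reads stayed close, with Mrpl42-203 at 57.9 ± 4.50% in control and 54.3 ± 1.32% in cold (SD, n = 3).

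The 3 paralogues of the Mrps18 family, relatives of bacterial ribosomal protein S18, did not move together. Mrps18a, whose product sits in the large subunit, was at 29.2, 15.4 and 15.0 CPM in control and at 92.6, 85.7 and 100.5 CPM in cold libraries. It had the largest change of the set, 2.20 ± 0.29 or 4.59-fold (95% interval 1.57 to 2.83, adjusted p = 0.000276). The groups stood far apart even for control replicate 2, the highest control. Mrps18b, a small subunit member, was at 99.5, 109.9 and 94.2 CPM in control and at 187, 161 and 162 CPM in cold, a rise of 0.75 ± 0.19 (interval 0.32 to 1.18, adjusted p = 0.0129). Its call was lost without cold replicate 4 (0.66, adjusted p = 0.0732) and on flow cell 2 alone (0.56, adjusted p = 0.054). Mrps18c, the small subunit member at the place of bacterial S18, was at 25.4, 15.4 and 19.8 CPM in control and at 8.39, 7.28 and 6.26 CPM in cold. Each cold library was below each control, and Mrps18c fell by 1.49 ± 0.28, or 2.81-fold (interval -2.11 to -0.87, adjusted p = 0.00242). The intervals of the rising pair lie above 0 and that of Mrps18c below it, and the differences between the 3 changes were not tested as such. Mrps18a (ENSMUSG00000023967) lies on chromosome 17 from 46110986 to 46128910, Mrps18b (ENSMUSG00000024436) on the same chromosome from 35910379 to 35916389, and Mrps18c (ENSMUSG00000016833) on chromosome 5 from 100798627 to 100804471. An antisense gene that overlaps Mrps18b held 4 reads against 1983 for Mrps18b.

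**Figure D2:**
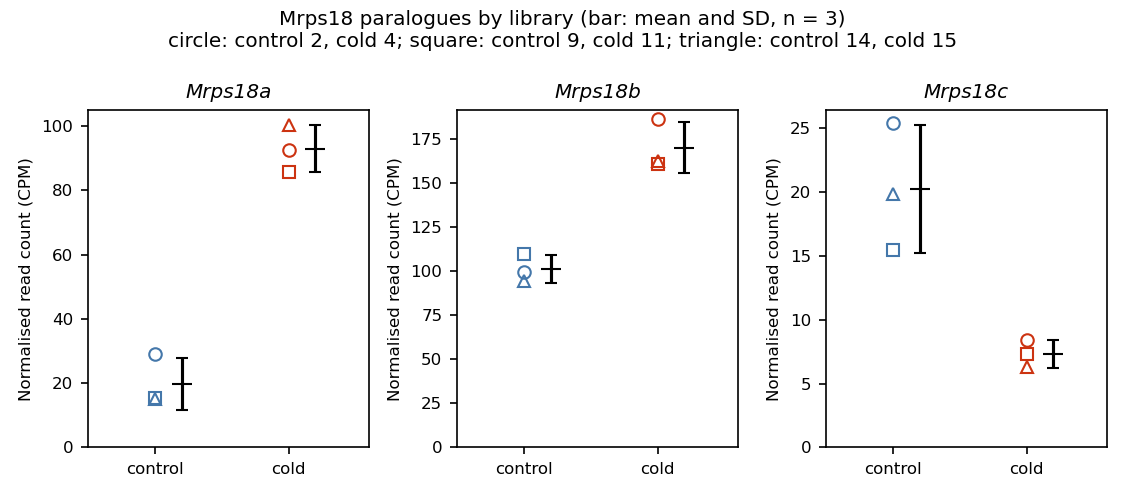
Normalised read counts (CPM, linear axis from 0) of the Mrps18 paralogues in each library, with mean and SD over n = 3 beside the points; circles, squares and triangles mark control replicates 2, 9, 14 and cold replicates 4, 11, 15 in that order. Mrps18a and Mrps18b are higher and Mrps18c is lower in every cold library.

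The stretches upstream of the 4 called genes with the smallest p are shown because the genes moved in opposite directions, Mrpl42 and Mrps18a up and Mrps15 and Mrps18c down. Each covers up to 250 bases before the RefSeq start on GRCm38.p6, without bases of annotated exons, and runs 5′ to 3′ on the strand of the gene. Capitals mark matches to CCGGAAG, the core of sites of ETS factors, on either strand. The stretch of Mrps18c is short because annotated exons of Mrps18c itself (132 bases) and of its neighbour Helq lie in the rest of the window.
Mrpl42, chr10:95501950-95502199, minus strand: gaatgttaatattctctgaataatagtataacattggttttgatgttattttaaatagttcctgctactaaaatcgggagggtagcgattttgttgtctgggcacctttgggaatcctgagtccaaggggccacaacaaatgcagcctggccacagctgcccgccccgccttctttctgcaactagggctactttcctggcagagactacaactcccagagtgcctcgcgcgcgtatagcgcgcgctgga
Mrps18a, chr17:46110754-46110985, plus strand: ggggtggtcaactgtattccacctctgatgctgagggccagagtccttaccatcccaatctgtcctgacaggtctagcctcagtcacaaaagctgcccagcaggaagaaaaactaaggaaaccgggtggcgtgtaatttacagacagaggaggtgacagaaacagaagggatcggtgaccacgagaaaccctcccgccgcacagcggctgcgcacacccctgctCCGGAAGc
Mrps15, chr4:126046678-126046924, plus strand: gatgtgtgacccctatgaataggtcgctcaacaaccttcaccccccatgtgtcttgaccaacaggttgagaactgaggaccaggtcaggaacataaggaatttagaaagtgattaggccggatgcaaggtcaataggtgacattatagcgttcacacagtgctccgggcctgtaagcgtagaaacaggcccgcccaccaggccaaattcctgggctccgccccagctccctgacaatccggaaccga
Mrps18c, chr5:100798599-100798626, plus strand: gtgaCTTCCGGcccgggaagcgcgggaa
Mrps18a held 1 match and Mrps18c held 1, and the others held none in these stretches. Over the 250 bases before RefSeq starts, 18 of the 69 members with a promoter sequence held the motif, or 26.1%, against 19.5% of 1648 tested genes and 7.83% of all 27025 genes in the table. GCGC followed by any base and TGCGC, the site of NRF1, was found in 10 of the 69 members (14.5%, against 10.4% of tested and 4.23% of all genes). AANATGGCG, for YY1, was in 2 members (2.9%, against 3.09% of tested and 1.29% of all genes). TNAAGGTCA, for estrogen-related receptors, was in 0 members, against 0.85% of tested and 1.30% of all genes. Of the called genes with a promoter sequence, the ETS core was present in 3 of 9 that rose and 3 of 6 that fell, and in 11 of 44 members without a call. The NRF1 site was present in 0 of 9, 1 of 6 and 5 of 44. The motifs were searched on both strands and their matches may overlap. A match is a run of letters and says nothing of binding.

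The other rises of the large subunit included several proteins with bacterial counterparts. Mrpl4, a protein at the wall of the exit tunnel, was at 42.7, 41.1 and 66.0 CPM in control and at 109.1, 98.0 and 104 CPM in cold (1.05 ± 0.24, adjusted p = 0.0064). Mrpl21 was at 9.20, 7.19 and 8.40 CPM in control and at 21.1, 15.9 and 20.4 CPM in cold (1.18 ± 0.27, adjusted p = 0.00683). Both genes separated the groups fully. On flow cell 2 alone Mrpl21 was not called (0.89, adjusted p = 0.0723). Mrpl13 went from 35.2, 42.1 and 45.6 CPM to 59.4, 64.9 and 66.5 CPM, a rise of 0.64 ± 0.21 (adjusted p = 0.0408). Mrpl27, which encodes a protein close to the peptidyl transferase centre, went from 34.1, 25.7 and 17.4 CPM to 53.7, 41.0 and 40.8 CPM, a rise of 0.81 ± 0.28 (adjusted p = 0.0472). These smaller changes were near the limit of the test: the call of Mrpl13 was lost without each of the 6 libraries in turn (0.52 to 0.70), and that of Mrpl27 without each library but control replicate 2 (0.55 to 0.88).

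Mitochondria-specific proteins of the large subunit gave the remaining 3 rises and the single fall. Mrpl48 was at 35.2, 32.9 and 32.4 CPM in control and at 72.8, 51.6 and 60.9 CPM in cold, a rise of 0.88 ± 0.23 (adjusted p = 0.0122), which was not called without cold replicate 4 (0.72, adjusted p = 0.0753). Mrpl41 went from 41.6, 28.8 and 27.6 CPM to 59.1, 55.3 and 54.7 CPM, a rise of 0.78 ± 0.24 (adjusted p = 0.0276). Its call was lost without control replicates 9 or 14 or any cold library (0.63 to 0.80), and on flow cell 1 alone (0.46, adjusted p = 0.245). Mrpl46 went from 48.7, 42.1 and 41.4 CPM to 78.2, 70.8 and 60.3 CPM (0.66 ± 0.22, adjusted p = 0.0361), and was not called without control replicates 9 or 14 or cold replicates 4 or 11 (0.55 to 0.66). Exons of Mrpl46 overlap those of the small subunit gene Mrps11 on the opposite strand, and Mrps11 stood at 0.62 ± 0.26 without a call (adjusted p = 0.0947). Mrpl52 was the exception: it was at 69.8, 30.8 and 35.4 CPM in control and at 15.1, 13.6 and 20.1 CPM in cold, and fell by 1.50 ± 0.33 (adjusted p = 0.00581). Control replicate 2 was far above the other controls for Mrpl52, and without that library the change was -1.04, still called.

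In the small subunit, Mrps2 was the rise that remains beside the Mrps18 genes. It was at 20.0, 24.7 and 20.4 CPM in control and at 38.6, 38.4 and 33.9 CPM in cold, a rise of 0.78 ± 0.23 (adjusted p = 0.0232). The call was lost without control replicates 2 or 14 or cold replicates 4 or 11 (0.71 to 0.76).

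The 5 falls of the small subunit were Mrps15, Mrps16, Mrps18c, Mrps6 and Mrps21, all of them genes with a bacterial counterpart. Mrps15, whose bacterial relative binds the small ribosomal RNA early in assembly, had closely grouped values, at 146, 156 and 152 CPM in control and at 69.5, 68.8 and 69.2 CPM in cold. It fell by 1.13 ± 0.19, or 2.19-fold (adjusted p = 0.00114). Mrps16, a gene in which mutations cause a fatal lactic acidosis of newborns in humans, was at 130.4, 93.5 and 71.4 CPM in control and at 46.7, 48.7 and 51.1 CPM in cold. It fell by 1.01 ± 0.25 (adjusted p = 0.00976), and its controls were spread more widely than its cold libraries. Mrps6 was at 27.0, 20.6 and 13.2 CPM in control and at 12.8, 6.95 and 7.58 CPM in cold, and fell by 1.16 ± 0.34 (adjusted p = 0.0249). The highest cold and the lowest control library of Mrps6 nearly met, and the call was lost without control replicates 2 or 9 or cold replicates 11 or 15 (-0.86 to -1.19). It differed between flow cells, at -1.81 on flow cell 1 alone and -0.58 on flow cell 2 alone, where it was not called (adjusted p = 0.297). Mrps21 was at 608, 434 and 418 CPM in control and at 337, 331 and 319.9 CPM in cold, and fell by 0.56 ± 0.20 (adjusted p = 0.0479). Its call held when control replicate 14 was left out and was lost without each of the other 5 libraries (-0.38 to -0.68), and also with library totals as the scale (-0.50, adjusted p = 0.0835).

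**Figure D3:**
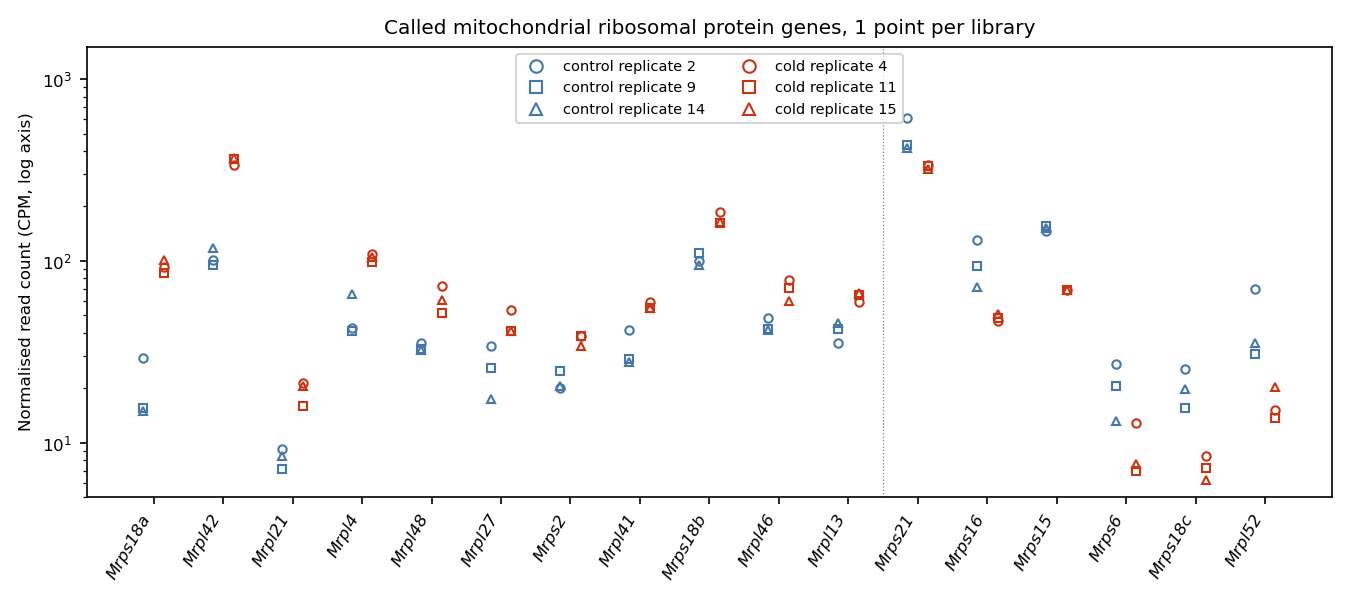
Normalised read counts (CPM, log axis) of the 17 called genes in each of the 6 libraries, rises left and falls right of the dotted line, ordered by log2 change. The 3 cold points lie on 1 side of the 3 control points for each gene, with the widest gaps for Mrps18a and Mrpl42 and the narrowest for Mrps6.

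The Mrps18a and Mrps18b proteins are counted here as specific to mitochondria. Among genes with a bacterial counterpart, 5 of 41 tested rose and 5 fell, which is 12.2% in each direction where 18.1% of all genes were called higher and 15.1% lower. The 5 falls were among 16 small subunit genes (31.2%), and 0 were among the 25 of the large subunit, where 15.1% of all genes fell. Of these falls, Mrps6 and Mrps21 kept their calls in 2 and 1 of the 6 fits without 1 library. Among genes specific to mitochondria, 6 of 27 tested rose (22.2%) and 1 fell (3.70%). The differences between these classes were not tested. The medians were -0.03 and -0.02. All 17 called genes had the 3 cold libraries on 1 side of the 3 controls, and in all 29 of the 68 tested genes did, against a background of 47.8% of all genes. In 17 members every cold library was above every control (26.0% of all genes), and in 12 every cold library was below (21.8%).

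The 51 genes without a call had log2 changes from -0.87 to 0.86. For 30 of them the 95% interval lay within a 2-fold change in either direction, and for 21 it reached beyond, so that these libraries do not bound the change within 2-fold. Mrpl34, Mrpl51 and Mrpl54 had the highest mean CPM in the large subunit, and Mrps36 in the small subunit. Mrpl34 was at 1133, 605 and 689 CPM in control and at 930.5, 917 and 927 CPM in cold (0.19 ± 0.23, adjusted p = 0.545). The control libraries of Mrpl34 lay on both sides of the cold ones, and without control replicate 2 it was called higher (0.50, adjusted p = 0.0234). Without control replicate 9 the change of Mrpl34 was -0.02 and without control replicate 14 it was 0.06 (adjusted p = 0.969 and 0.902). Mrpl51 was at 821, 691 and 678 CPM in control and at 666, 628 and 642 CPM in cold (-0.18 ± 0.16, interval -0.54 to 0.18, adjusted p = 0.432). Mrpl54 was at 431, 379 and 323 CPM in control and at 449, 435 and 546 CPM in cold (0.33 ± 0.19, adjusted p = 0.201).

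Dap3, a GTP-binding protein of the small subunit first known as a death-associated protein, was at 40.6, 69.9 and 99.0 CPM in control and at 44.3, 38.7 and 31.6 CPM in cold. Control replicate 2 lay within the range of the cold libraries, and the other controls above it. The change of -0.87 ± 0.31 was not called (adjusted p = 0.0529), and without control replicate 2 it was (-1.16, adjusted p = 0.00381). Without control replicate 14, the highest library, it was -0.54 (adjusted p = 0.201), and it was not called without any other single library either (adjusted p = 0.0719 to 0.136). DESeq2 called Dap3 lower (-0.91, adjusted p = 0.0181). Mrps30 was at 8.11, 11.3 and 14.4 CPM in control and at 10.1, 9.93 and 13.2 CPM in cold (-0.02 ± 0.31, interval -0.69 to 0.66). Mrps36 was at 863, 655 and 654 CPM in control and at 666, 699 and 671 CPM in cold (-0.09 ± 0.17, interval -0.48 to 0.29). The groups of Mrps30 and of Mrps36 overlapped. Mrpl12, a protein of the stalk that recruits translation factors, stood at 217 ± 12.6 and 213 ± 15.4 CPM (-0.03 ± 0.18), and Mrps12, at the decoding site, at 38.3 ± 6.80 and 38.5 ± 2.85 CPM (0.00 ± 0.23). Mrpl12, Mrps12, Mrps11, Mrpl23 and Mrpl53 fall outside the naming rule and were picked with their values in view.

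The 11 members that did not pass the filter were Mrpl9, Mrpl19, Mrpl22, Mrpl23, Mrpl32, Mrpl44, Mrpl45, Mrpl50, Mrps25, Mrps31 and Mrps33, with 1 to 72 reads each over all 6 libraries. Mrpl23 had 1 read, in cold replicate 4, and a processed pseudogene with a stretch of 507 bases identical to it had 27, so that reads of the gene may be listed under the copy. Reads of Mrpl53, which was tested and not called, cannot be told from those of a gene model that shares its exons and held 363 reads against 373.

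Summed reads give the balance of the subunits in each library. Large subunit genes held 0.468, 0.356 and 0.350% of the reads of control replicates 2, 9 and 14, and 0.445, 0.435 and 0.468% of those of cold replicates 4, 11 and 15. Small subunit genes held 0.245, 0.193 and 0.193% in control and 0.200, 0.201 and 0.200% in cold. Neither sum separated the groups, since control replicate 2 lay at the upper end of the cold range or above it, and the other controls lay below that range. The ratio of small to large subunit reads did separate them, at 0.524, 0.542 and 0.551 in control and 0.450, 0.462 and 0.427 in cold. On the log2 scale the mean was -0.89 ± 0.037 in control and -1.16 ± 0.058 in cold (SD, n = 3), a difference of -0.27. This value is a description without a test, since it is a sum over chosen genes. Leaving out called falls of the small subunit has to shrink this difference. Called rises of the large subunit lower the ratio too, and the difference was not recomputed without them. Of these, Mrpl42 had 187, 92 and 196 reads in control replicates 2, 9 and 14. It had 1001, 1090 and 1114 reads in cold replicates 4, 11 and 15. Without Mrps21 the difference was -0.17, without Mrps21 and Mrps15 it was -0.10, and without Mrps16 as well it was -0.05. Without Mrps36 alone it was -0.30, and without Mrpl34 alone it was -0.25. With Mrps30 and Mrps18a counted as large and Mrps36 left out, the difference was -0.41, and the falling genes were not left out of that ratio.

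**Figure D4:**
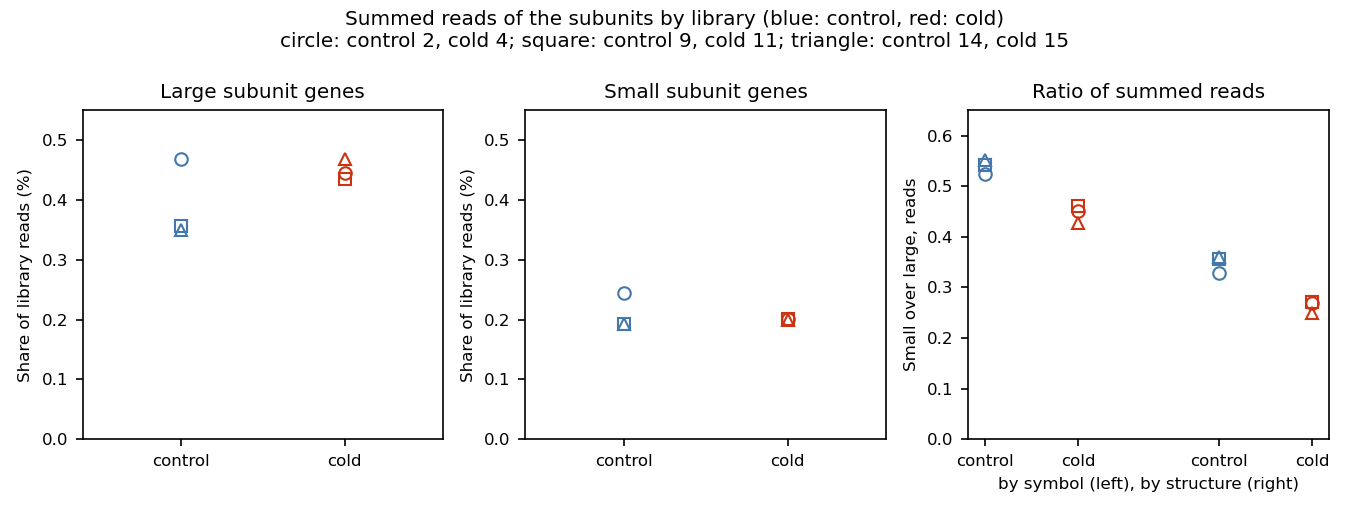
Share of each library's reads (percent, axis from 0) on large and on small subunit genes, and the ratio of small to large subunit reads with the subunit taken from the symbol or from the structure; circles, squares and triangles mark control replicates 2, 9, 14 and cold replicates 4, 11, 15 in that order. The shares overlap between groups, while the ratio by symbol is 0.524 to 0.551 in control and 0.427 to 0.462 in cold libraries.

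Transcripts were tested in the same way. Of 193 transcripts of these genes with reads 88 were tested, and 15 were called higher and 9 lower. These 24 compare with 32.7% of all 2787 tested transcripts called, 17.4% higher and 15.3% lower. Without cold replicate 4 the count was 12, and without cold replicate 11 it was 14. Of the 24 transcripts 4 belong to genes not called themselves. Mrps24-201, annotated as a retained intron of a small subunit gene, was at 9.24, 6.21 and 7.78 CPM in control and at 20.3, 27.1 and 17.6 CPM in cold (1.44 ± 0.31, adjusted p = 0.00388). Its share of the reads of Mrps24 was 10.9 ± 0.839% in control and 23.0 ± 5.13% in cold, while the main coding transcript Mrps24-205 stood at 62.6 and 72.3 CPM (0.20 ± 0.22, adjusted p = 0.499). Mrps23-203 was at 25.0, 22.8 and 25.1 CPM in control and at 43.3, 46.9 and 38.1 CPM in cold (0.81 ± 0.24, adjusted p = 0.0209), while Mrps23-201, also coding, stood at 26.1 and 26.4 CPM (0.02 ± 0.26). Mrpl57-202, a retained intron, fell by 1.33 ± 0.39 (adjusted p = 0.0206), and Dap3-201 fell by 0.87 ± 0.31 (adjusted p = 0.0493). The genes themselves stood at 0.42 ± 0.21 for Mrps24, 0.46 ± 0.21 for Mrps23 and -0.73 ± 0.31 for Mrpl57, none of them called, though without control replicate 14 Mrpl57 was (-1.05, adjusted p = 0.0165). Without control replicate 2 the change of Mrpl57 was -0.42 (adjusted p = 0.291). DESeq2 on all 6 libraries called Mrpl57 lower (-0.79, adjusted p = 0.0419). The shares of transcripts were then tested with diffSpliceDGE in 17 member genes, and 0 were called, against 1.67% of all 539 genes tested. Mrps24 alone passed an unadjusted threshold of 0.05 (adjusted p = 0.415).

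The rest of mitochondrial translation was less well covered. Of 4 ribosomal proteins whose genes carry other names, Gadd45gip1, which lies at the exit tunnel of the large subunit, was at 104.9, 82.2 and 106 CPM in control and at 48.3, 32.4 and 49.4 CPM in cold. It fell by 1.17 ± 0.24 (adjusted p = 0.00363), and Aurkaip1, Chchd1 and Ptcd3 were not called. This 1 of 4 is 25.0%, where 15.1% of all tested genes fell. Of 15 translation and messenger RNA factors 5 were tested and 1 rose (20.0%, where 18.1% of all tested genes rose). This was Slirp, which stabilises mitochondrial messenger RNAs together with Lrpprc, at 104, 52.4 and 66.0 CPM in control and 175, 131 and 157 CPM in cold (1.05 ± 0.27, adjusted p = 0.0123). Of 23 assembly and RNA modification factors 6 were tested and 0 called by edgeR, with 2 at an unadjusted p under 0.05. Of all tested genes 33.2% were called, and 44.0% had an unadjusted p under 0.05. Of 22 genes of mitochondrial aminoacyl-tRNA synthesis 4 were tested and 1 rose (25.0%, against 18.1% of all tested genes). This was Cars2, the gene of the cysteinyl-tRNA synthetase, at 11.4, 16.4 and 12.0 CPM in control and 269.6, 481 and 263 CPM in cold (4.69 ± 0.33, adjusted p = 7.7e-06). The Cars2 values sum all transcripts of the gene, whether or not annotated as coding, and these are not told apart here.

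Reads of most of the messenger RNAs that these ribosomes translate fell. The library method targets capped RNA, and how well it recovers mitochondrial transcripts was not tested. Their control means ran from 3.60 CPM for mt-Nd4l to 19747 CPM for mt-Cytb. Of 12 tested mitochondrially encoded genes 11 fell (91.7%, against 15.1% of all genes) and 0 rose. Their median was -1.27, while the mitochondrial ribosomal protein genes had a median of -0.03. The mitochondrially encoded genes had control sums above their cold sums. Their summed level was 45126, 69217 and 46421 CPM in control and 28789, 26116 and 21284 CPM in cold. For cytosolic ribosomal proteins 2 of 79 tested genes rose (2.53%, against 18.1% of all genes) and 10 fell (12.7%, against 15.1%), with a median of -0.26. Control replicate 2 had the highest sum of both ribosomal sets, 7132 CPM for the mitochondrial and 38569 CPM for the cytosolic one, against 5644 and 5719 CPM and 25957 and 27825 CPM in the other controls. Its part in the changes was not tested. Without this library the median of the large subunit genes was 0.24 and that of the small subunit genes -0.06. The median length of the counted transcripts was 1076 bases for the 11 rising members and 764 for the 6 falling ones. It was 1398 bases for tested members without a call and 1717 for all tested genes. Across the 68 tested members length and log2 change had a Spearman correlation of 0.0141, and across all 2093 tested genes, which share the 6 libraries, of 0.187.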

How the data were processed

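The deposited files give raw counts, that is reads per Ensembl transcript, in 12 files that hold 2 flow cells for each of 6 libraries. Per the submitters' processing notes minimap2 and GRCm38 were used, while the way reads fitting several transcripts were assigned was not given in the sources used here. Per the labels' protocols, full-length cDNA was made from poly(A) RNA with the TeloPrime kit, a method that targets capped RNA, and amplified by PCR, without mention of molecular identifiers. The extraction text names eWAT, another fat depot, and the tissue label was used.

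Transcripts were joined to genes by identifier without version through GENCODE M21 (14671 of 14693 matched). Counts were summed over flow cells and transcripts. Genes and transcripts were tested over the whole table with edgeR 4.0.16 in R 4.3.3: filterByExpr at a minimum count of 10, TMM scaling, robust quasi-likelihood F test and Benjamini-Hochberg adjustment. SE was taken as the log2 change over the root of F, and intervals are at 95%. CPM values are scaled by TMM, and percentages of reads are not. Transcript shares were tested with diffSpliceDGE. Code was tested on simulated data. DESeq2 1.42.0 and other settings served as alternatives. Copies were sought with blastn 2.17.0 at 95% identity over at least 50% of the shorter transcript.

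Members, lists and motifs were chosen with earlier results of these data known. The naming rule took the called members, the 5 with the smallest p and the 3 with the highest mean CPM of each subunit, members with a called transcript, and Dap3, Mrps30, Mrps18a and Mrps36. Nothing says whether mice were handled in batches, and p values measure the spread between these libraries.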

Additional observations from a re-analysis of the deposited data

How the results depend on the processing

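No paired analysis was possible because the control and cold mice share no replicate number. The counts of 11 members higher and 6 lower were recomputed under 8 other settings. Higher calls were 7 on flow cell 1 alone, and 6 higher and 10 lower with libraries thinned to the smallest. Leaving out 1 library gave 4 to 11 higher and 4 to 8 lower. Without cold replicates 11 and 15 together, a choice made after seeing the data, 4 were higher and 1 lower. No named member was called in the opposite direction in any setting. Of the 24 called transcripts the count was 14 without a filter and 12 to 22 without 1 library, and 0 genes changed transcript usage in any setting. The median of the small subunit genes (-0.02) was -0.07 with DESeq2 and with its size factors, 0.05 with library totals, 0.11 without a filter, -0.09 on flow cell 2, -0.07 with subunits by structure, and -0.14 to 0.04 without 1 library. That of the large subunit genes (-0.03) was 0.22 without a filter, where the median of all genes moved by 0.255, and -0.04 to 0.24 without 1 library. The signs of these medians changed between settings. The difference in the log2 ratio of small to large subunit reads (-0.27) was -0.30 to -0.24 without 1 library and -0.41 with subunits by structure. The causes were not tested. Depth limits the 11 untested members, and 21 of the 51 genes without a call had intervals beyond 2-fold.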
